A study of Mus musculus with 4 samples.

Results

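The genes described here are 10 target genes of hypoxia-inducible factor 1 (HIF1), namely Vegfa, Egln1, Egln3, Car9, Adm, Ankrd37, P4ha1, P4ha2, Kdm3a and Ndrg1. All 19 probe sets that the platform annotation assigns to 1 of these symbols alone were taken, out of 45101 probe sets and 18193 single-symbol genes on the array. Their RNA was measured on 4 Affymetrix Mouse430_2 arrays, 1 for each sample of epithelium taken from the small intestine of E15.5 mouse embryos. The 2 Yy1_KO samples had the genotype Yy1f/f; Shh-Cre, and the 2 WT samples were littermate controls of the genotype YY1f/f, so the floxed Yy1 alleles were shared by both groups. Shh-Cre is a recombinase driven from the Shh locus, which is active in the endoderm of the gut. Yy1 is a zinc finger transcription factor. No control carried Cre, so what losing Yy1 does and what carrying Cre does cannot be told apart. Up to 2 embryos of a genotype were pooled for a sample, and cells carrying the epithelial adhesion protein Epcam were taken by magnetic selection from gut between the proximal stomach and the distal caecum. The comparison asks how RNA levels differ in epithelium that has lost Yy1, and the study's title names aerobic metabolism.

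HIF1 is a pair of proteins, an oxygen-regulated alpha subunit (Hif1a) and a constant partner (Arnt). In the presence of oxygen, prolyl hydroxylases of the Egln family mark the alpha subunit, and the von Hippel-Lindau protein Vhl then delivers it to a ubiquitin ligase for destruction. When oxygen is short the subunit persists, enters the nucleus and binds DNA at short sequences with the core ACGTG or GCGTG, raising genes for blood vessel growth, glycolysis, acid-base balance and collagen hydroxylation.

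The stretch around the transcription start was examined for this core, since the members were chosen as HIF1 targets and several of them changed. RefSeq promoter windows (GRCm38.p6, 250 bases before to 50 bases after a start) were at hand for 9 of the 10 members, 12 windows in all. The core ACGTG or GCGTG was searched on both strands, with overlapping matches counted separately. It was in at least 1 window of each of these 9 members, and in 9 of the 12 windows. The windows without this core belonged to Vegfa and Kdm3a. Over all 32851 windows 43.8% held it, and over all 27025 genes with a window 46.7% did in at least 1 window. GC content matters for such a match, and it lay between 49.0% and 86.0% in the members' windows. The median over all windows was 52.7%, and of the members' windows only the Kdm3a window of 49.0% lay under it. No test of these shares was made. A match is a description of the sequence and not a measured binding site. The motif AANATGGC, which holds the ATGGC core of Yy1 sites, was searched on both strands. It was in none of the members' windows and in 6.05% of all windows. At that share, 12 windows are too few to show that the members lack the motif. The core ATGGC alone was not searched for, and it stands in the Car9 and Ankrd37 windows printed below.

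Shown here are the windows of the 4 members that both changed and had one, 5′ to 3′ on the strand of the gene, with every match to the HIF core on either strand in capitals. They lie at chr4:43506776-43507075 (plus strand, Car9), chr8:45999801-46000100 (minus strand, Ankrd37), chr8:124949205-124949504 (minus strand, Egln1) and chr12:54203825-54204124 (minus strand, Egln3).
Car9: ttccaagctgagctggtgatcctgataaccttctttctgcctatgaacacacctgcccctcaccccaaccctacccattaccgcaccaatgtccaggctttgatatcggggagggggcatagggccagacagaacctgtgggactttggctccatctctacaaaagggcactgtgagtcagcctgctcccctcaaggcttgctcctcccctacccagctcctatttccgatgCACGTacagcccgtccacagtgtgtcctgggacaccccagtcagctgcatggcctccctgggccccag
Ankrd37: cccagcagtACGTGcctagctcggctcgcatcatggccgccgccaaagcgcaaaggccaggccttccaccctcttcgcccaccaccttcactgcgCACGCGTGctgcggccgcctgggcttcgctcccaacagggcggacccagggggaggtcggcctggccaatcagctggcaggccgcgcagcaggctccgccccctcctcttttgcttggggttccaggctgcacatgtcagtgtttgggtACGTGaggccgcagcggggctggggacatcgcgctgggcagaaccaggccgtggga
Egln1: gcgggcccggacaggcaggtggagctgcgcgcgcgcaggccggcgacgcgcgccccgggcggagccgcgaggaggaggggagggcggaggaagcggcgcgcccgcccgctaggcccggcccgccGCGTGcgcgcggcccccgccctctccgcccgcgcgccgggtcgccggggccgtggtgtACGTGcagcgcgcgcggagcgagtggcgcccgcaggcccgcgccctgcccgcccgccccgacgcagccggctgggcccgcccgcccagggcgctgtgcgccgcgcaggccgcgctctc
Egln3: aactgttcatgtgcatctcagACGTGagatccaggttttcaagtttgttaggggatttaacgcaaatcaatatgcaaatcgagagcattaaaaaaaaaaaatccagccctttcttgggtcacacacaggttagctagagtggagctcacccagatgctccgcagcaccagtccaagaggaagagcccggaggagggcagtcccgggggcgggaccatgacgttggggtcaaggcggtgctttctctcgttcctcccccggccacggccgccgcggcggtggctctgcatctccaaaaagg

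In the Car9 window the single match began 18 bases before the start. The Ankrd37 window held 4 matches, of which a pair overlapped in the palindrome CACGCGTG and another began 6 bases before the start. Egln1 had 2 matches, 126 and 68 bases before the start, in a window of 86.0% GC. The single match of Egln3 began 229 bases before its start.

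Of the 10 members, 9 had at least 1 probe set bright enough to be tested, that is with a log2 GCRMA intensity (background-corrected and normalized array signal) of at least 4 on at least 2 arrays. Judged by the brightest tested probe set of each gene, 4 members were lower in Yy1_KO epithelium (Ndrg1, Egln3, Ankrd37 and Egln1), 1 was higher (Car9), and 4 did not pass the threshold, a limma adjusted p under 0.05 (Vegfa, Adm, P4ha1 and Kdm3a). Over all 8626 genes tested, 39.6% passed, 21.7% lower and 17.9% higher, so that much of the expressed genome differed between these samples. The median log2 change (Yy1_KO minus WT) was -0.28 over the 9 members and -0.03 over all tested genes. The members' median was not stable: it was -0.50 without WT replicate 1, -0.12 without WT replicate 2, -0.13 without Yy1_KO replicate 1 and -0.55 without Yy1_KO replicate 2. It was -0.48 with the mean over a gene's probe sets, and -1.01 over the 4 members left by a filter at 6. At the level of probe sets, 11 of 17 tested were lower and 1 was higher, against 20.0% lower and 37.1% called in either direction over all tested probe sets. All 5 probe sets of Ndrg1 are among the 11. Probe sets of 1 gene are not independent readings, so this count adds nothing to that of genes. The values of the 2 genotypes did not overlap for 5 of the 9 members, and for 75.0% of all tested genes. No tested member had both arrays of either genotype under the filter. Levels are on the log2 scale of 1 probe set and are not compared between genes.

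**Figure D1:**
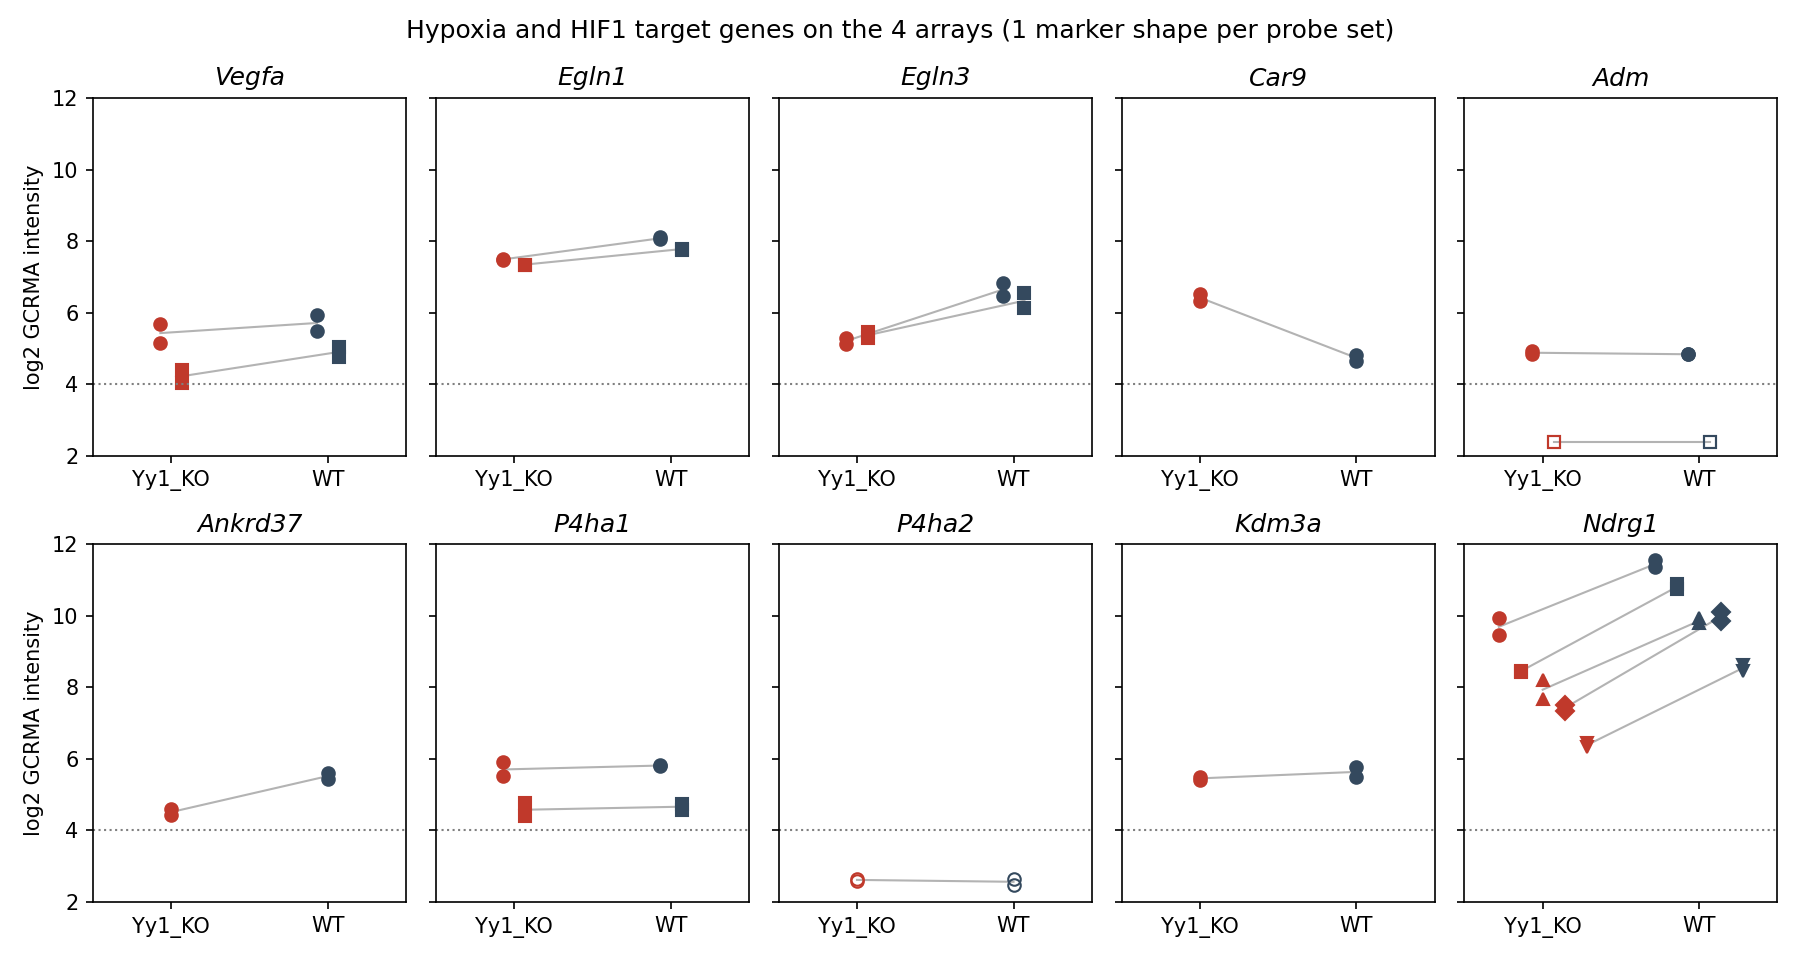
Log2 GCRMA intensity (vertical axis) of the 10 members on the 2 Yy1_KO arrays (red, left) and the 2 WT arrays (dark blue, right). Each marker shape is 1 probe set, each point 1 array, grey lines join group means, open markers are probe sets not tested, and the dotted line is the filter at 4; all 5 Ndrg1 probe sets lay lower in Yy1_KO and Car9 lay higher.

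Several values of the arrays as a whole bear on these comparisons. Yy1 RNA was lower on all 4 of its probe sets, and the brightest (1422569_at) stood at 7.27 and 6.81 on the Yy1_KO arrays, against 8.79 and 8.82 on the WT arrays (log2 change -1.77, SE 0.17, limma adjusted p = 0.00209, and 0.0504 without WT replicate 2). Whether these probe sets cover the floxed exon was not examined. On 1 of them, 1457834_at, both Yy1_KO values were 2.97, below the filter, where only a fall was testable. Shh, whose locus carries the Cre, changed by -1.95 (SE 0.11, limma adjusted p = 0.000812) on its tested probe set. Markers of other cell types were higher in Yy1_KO epithelium, with all 10 tested mesenchyme genes of 12, all 7 tested smooth muscle genes of 8, all 7 tested leukocyte genes of 10 and both tested globins of the embryo (Hbb-y, Hba-x) called higher. Of these, 5 mesenchyme, 1 smooth muscle, 3 leukocyte and 1 globin gene had both WT values below the filter, where only a rise was testable. The summed linear intensity of the mesenchyme list was 2583 and 2362 in Yy1_KO, against 788 and 644 in WT, that of the smooth muscle list 2873 and 2909, against 380 and 236, that of the leukocyte list 642 and 760, against 209 and 200, and that of the erythroid list 1037 and 920, against 82.3 and 101. Twist1 of the mesenchyme list and 5 of the 10 endothelial markers (Pecam1, Tek, Tie1, Cldn5 and Emcn) stood at 2.36 or 2.37 on every array, where the lowest value of the arrays is 2.36. Cdh5, which also defines endothelium, had 2.74 and 2.66 in Yy1_KO, against 2.58 and 2.49 in WT, and Esam had 2.85 and 2.43, against 2.44 and 2.43, all under the filter and not tested. Egfl7, which some epithelia make too, alone passed the filter and had a log2 change of -0.57 (limma adjusted p = 0.0381). That call was lost with quantile normalization, with no filter, with a filter at 3 and with the mean over its probe sets (-0.36). It was also lost against a 1.2-fold change and when any 1 array was left out. Without 1 array the Egfl7 change lay between -0.73 and -0.40. None of 6 neuron and glia genes on the array was tested, and of 4 mesothelial genes Upk3b alone was, with a log2 change of -2.39. General epithelium markers had a median log2 change of -0.17 (3 of 14 higher, 5 lower), while all 9 tested enterocyte genes were lower, with a median of -4.02; for 2 of them both Yy1_KO values were below the filter, where only a fall was testable. The log2 difference between the 3′ and the 5′ Gapdh controls, which grows as RNA degrades, was 1.60 and 1.65 in Yy1_KO, against 1.31 and 1.37 in WT. The same difference for the actin controls was -0.08 and -0.07 in Yy1_KO, against -0.10 and -0.13 in WT, a smaller gap. The part of these marker lists, and of RNA quality, in the members' changes was not tested. Fewer cells of a type and less RNA per cell cannot be told apart in such bulk samples.

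The oxygen-sensing hydroxylases Egln1 and Egln3 were both lower in Yy1_KO epithelium, on both probe sets of each. Egln1, the hydroxylase that sets HIF alpha levels in most cells, had values of 7.50 and 7.48 in Yy1_KO, against 8.11 and 8.05 in WT, on 1451110_at. The groups did not overlap, and the replicates of each lay close together. The log2 change was -0.59 (SE 0.10, limma adjusted p = 0.00991), which left 66.5% of the WT level. On 1423785_at both Yy1_KO arrays stood at 7.34, against 7.76 and 7.79 in WT, a change of -0.43 (limma adjusted p = 0.0231), so the fall of Egln1 was shallow on each probe set. Egln3, whose gene is itself strongly raised by HIF in low oxygen, had 5.13 and 5.28 in Yy1_KO, against 6.47 and 6.82 in WT, on 1418649_at. Again the groups did not overlap, and 37.0% of the WT level was left (log2 change -1.44, SE 0.15, limma adjusted p = 0.00266). Its other probe set, 1418648_at, had 5.45 and 5.29 in Yy1_KO, against 6.12 and 6.55 in WT, and a smaller change of -0.97 (limma adjusted p = 0.0113). In the authors' deposited table, which lists changes of at least 2-fold, 1418649_at appears with a log2 fold change of -1.44 and an adjusted p of 0.00104. The call for 1451110_at of Egln1 ended when any 1 array was left out (limma adjusted p between 0.0536 and 0.0698), and likewise for its other probe set, while that for 1418649_at of Egln3 held without each array. The weaker Egln3 probe set missed the threshold without WT replicate 2 (limma adjusted p = 0.0688), without Yy1_KO replicate 1 (0.0736) and without Yy1_KO replicate 2 (0.107).

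The secreted signals gave no clear difference. Vegfa, the growth factor that draws blood vessels into tissue, had 5.16 and 5.69 in Yy1_KO, against 5.50 and 5.92 in WT, on its brighter probe set 1451959_a_at, and the groups overlapped. The log2 change was -0.28 with a 95% interval of -0.86 to 0.29 (limma adjusted p = 0.376), so a fall of up to that size and a small rise both lie within the error. The dimmer Vegfa probe set, 1420909_at, had 4.40 and 4.04 in Yy1_KO, against 4.76 and 5.04 in WT, without overlap, and a change of -0.68 (SE 0.17, limma adjusted p = 0.0297). That call ended when any 1 array was left out (limma adjusted p between 0.0605 and 0.182), and the 2 probe sets thus pointed the same way with different calls. Adm encodes adrenomedullin, a vessel-relaxing peptide, and 1447839_x_at read 4.84 and 4.92 in Yy1_KO, against 4.83 and 4.84 in WT. The first Yy1_KO array and the second WT array recorded an identical value there. The change was 0.04 with a 95% interval of -0.21 to 0.30 (limma adjusted p = 0.766). The other Adm probe set, 1416077_at, held the same value of 2.38 on all 4 arrays, near the floor of the data, and was not tested. The suffix _x_at marks probes that can also bind other transcripts.

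Car9 was the only member that was higher in Yy1_KO epithelium. It encodes carbonic anhydrase 9, a membrane enzyme that helps cells export acid, and is among the most strongly induced HIF1 targets in many tumours. It is also made without hypoxia in the stomach lining of healthy mice. On its single probe set, 1427013_at, Car9 had 6.51 and 6.32 in Yy1_KO, against 4.65 and 4.82 in WT. The means were 6.42 ± 0.13 in Yy1_KO and 4.73 ± 0.12 in WT (SD, n = 2 each). Car9 was thus 3.21-fold higher (log2 change 1.68, SE 0.13, limma adjusted p = 0.00119). The call held without each array in turn. The authors' deposited table gives a log2 fold change of 1.68 with an adjusted p of 0.000366. Gastric genes were looked at beside it, on a list written after the members' values had been seen. Of 12 gastric epithelium genes on the array 2 were tested, and both were higher. Gkn1, a gastric mucosal protein, had 4.85 and 5.38 in Yy1_KO, against 2.41 in both WT arrays, and the tight junction gene Cldn18 had 6.03 and 5.90 in Yy1_KO, against 3.55 and 3.60 in WT. For both genes the WT arrays were under the filter, and a rise was the only testable outcome. The other 10 were under the filter, with Muc5ac, Sox2 and Atp4b at 2.36 on every array, and the summed linear intensity of the list was 162 and 169 in Yy1_KO, against 81.5 and 82.5 in WT. Their part in the Car9 result was not tested.

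The other carbonic anhydrases that could be tested did not share the direction of Car9. Of 15 others on the array only 2 were tested, and both were lower. The cytosolic Car13 had 3.77 and 3.62 in Yy1_KO, against 5.09 and 5.62 in WT (log2 change -1.66, SE 0.19, limma adjusted p = 0.00341, and 0.0611 without Yy1_KO replicate 2), with both Yy1_KO values below the filter, where only a fall was testable. Car8, a family member without enzymatic activity, changed by -0.65 (SE 0.11, limma adjusted p = 0.0105), a call that ended without any 1 array (limma adjusted p between 0.0541 and 0.0851). Car12, another membrane carbonic anhydrase raised by HIF, was under the filter on all arrays.

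The collagen prolyl 4-hydroxylase subunits gave no detectable difference. P4ha1, a catalytic subunit of the enzyme that stabilises the collagen triple helix, had 5.51 and 5.90 in Yy1_KO, against 5.82 and 5.80 in WT, on 1452094_at. The WT values lay between the Yy1_KO values, and the log2 change was -0.11 with a 95% interval of -0.50 to 0.28 (limma adjusted p = 0.614). The change was -0.09 on 1426519_at (limma adjusted p = 0.701). P4ha2, the other catalytic subunit, lay under the filter with 2.58 and 2.65 in Yy1_KO, against 2.64 and 2.48 in WT, and was not tested. Their substrates behaved otherwise on the same arrays: all 10 collagen genes examined were higher, with log2 changes between 1.45 and 2.54, and in 3 of them the WT values were below the filter, where only a rise was testable. The largest collagen changes were those of Col6a1 (2.54 ± 0.12 SE), Col6a2 (2.49 ± 0.12), Col5a1 (2.49 ± 0.11) and Col1a2 (2.40 ± 0.22), each with a limma adjusted p between 0.000686 and 0.00187. Of the mesenchyme list, 3 genes are collagens that also stand here. Of 15 collagen-modifying enzymes and chaperones on the array 6 were tested. Plod2, a lysyl hydroxylase and HIF target, was lower with 5.90 and 5.97 in Yy1_KO, against 7.17 and 6.97 in WT (log2 change -1.14, SE 0.12, limma adjusted p = 0.00258). The prolyl isomerase Ppib was higher by 0.57 (limma adjusted p = 0.0151), and without any 1 array its adjusted p lay between 0.0553 and 0.0975. P4hb, the partner subunit of P4ha1 and P4ha2, had a change of -0.14 (limma adjusted p = 0.383).

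Kdm3a, a histone H3 lysine demethylase that needs oxygen, had 5.41 and 5.50 in Yy1_KO, against 5.50 and 5.77 in WT. The groups overlapped narrowly at 5.50, and the log2 change was -0.18 with a 95% interval of -0.51 to 0.15 (limma adjusted p = 0.327). Of 12 other jumonji demethylases tested 1 was lower and 11 did not pass. That gene was Kdm2b, with a change of -0.57 (SE 0.15, limma adjusted p = 0.0336, and between 0.0676 and 0.191 when 1 array was left out). With median centring or quantile normalization of the arrays 2 of the 12 were higher.

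Ankrd37 and Ndrg1 were both lower, and Ndrg1 had the largest change of the members. Ankrd37 encodes an ankyrin repeat protein whose gene is a direct HIF1 target, and 1436538_at had 4.60 and 4.42 in Yy1_KO, against 5.42 and 5.61 in WT. The groups did not overlap, and Yy1_KO held 49.8% of the WT level (log2 change -1.01, SE 0.13, limma adjusted p = 0.00412). Without WT replicate 2 its adjusted p was 0.0570 and without Yy1_KO replicate 2 it was 0.0529. Ndrg1 encodes a cytoplasmic protein that rises with differentiation and with hypoxia. Its brightest probe set, 1456174_x_at, had 9.46 and 9.92 in Yy1_KO, against 11.35 and 11.55 in WT (log2 change -1.76, SE 0.18, limma adjusted p = 0.00250, and 0.0545 without WT replicate 2).

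All 5 Ndrg1 probe sets fell without overlap of the groups, but by unequal amounts. On 1450976_at the values were 7.33 and 7.51 in Yy1_KO, against 9.86 and 10.11 in WT, leaving 16.9% of the WT level (log2 change -2.56, SE 0.14, limma adjusted p = 0.000738). On 1420760_s_at they were 8.46 and 8.44 in Yy1_KO, against 10.75 and 10.88 in WT, a change of -2.37 (SE 0.11). The changes on 1423413_at and 1450977_s_at were -2.16 and -1.93, and 1450977_s_at missed the threshold without WT replicate 2 (limma adjusted p = 0.0551). The brightest probe set, which stands for the gene in the counts, thus showed the smallest fall, to 29.6% of the WT level. Its suffix is _x_at, with the limit given above for Adm. The authors' deposited table lists all 5, with log2 fold changes from -2.56 to -1.76. Of the other family members on the array, Ndrg2 was lower with 4.59 and 4.55 in Yy1_KO, against 5.38 and 5.37 in WT (log2 change -0.80, SE 0.10, limma adjusted p = 0.00396, and 0.0531 without WT replicate 2). Ndrg3 had a change of -0.20 and did not pass, and Ndrg4 was under the filter. On the same arrays the enterocyte list had the median change of -4.02 given above, and its part in the fall of Ndrg1 was not tested.

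**Figure D2:**
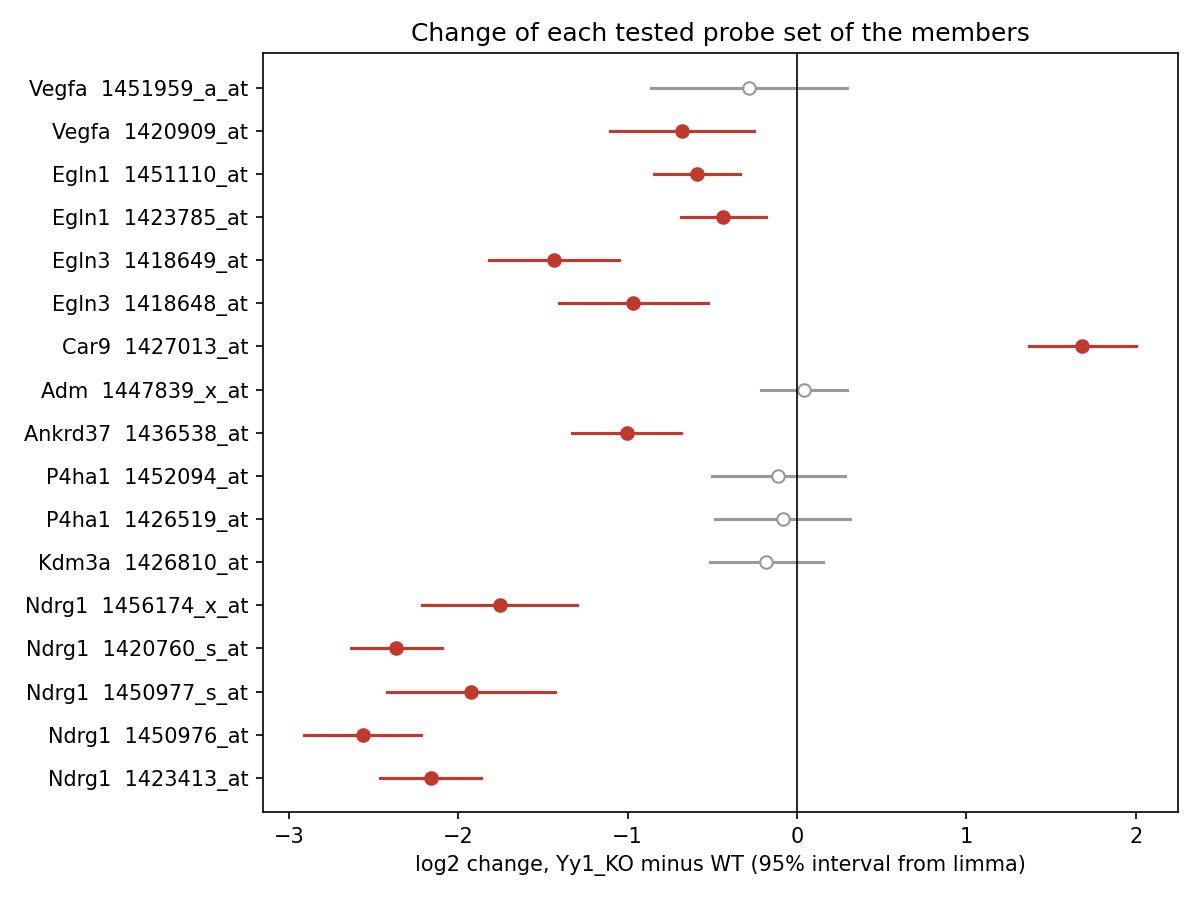
Log2 change, Yy1_KO minus WT (horizontal axis), of the 17 tested probe sets of the members, with 95% intervals from limma; filled red marks an adjusted p under 0.05. Ndrg1 ranged from -2.56 to -1.76, Car9 stood alone at 1.68, and the intervals of Adm, P4ha1, Kdm3a and the brighter Vegfa probe set crossed 0.

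The genes that make and control HIF were examined next, from a list of 17 of which 13 were tested. Of these 4 were lower and 9 did not pass, with a median log2 change of -0.34. Over all tested genes 21.7% were lower and 39.6% were called in either direction, so this count was not far from that of genes in general. Hif1a, the oxygen-regulated subunit, had 6.93 and 6.94 in Yy1_KO, against 7.38 and 7.56 in WT (log2 change -0.53, SE 0.11, limma adjusted p = 0.0182). Its 3 other tested probe sets had changes of -0.11, -0.63 and -0.92. The first of these did not pass (limma adjusted p = 0.474), and for the last both Yy1_KO values, 3.08 and 3.11, were below the filter, where only a fall was testable. Hif3a, an alpha subunit with splice forms that oppose HIF1 in mouse, had 8.62 and 8.58 in Yy1_KO, against 9.13 and 9.47 in WT (log2 change -0.70, SE 0.14, limma adjusted p = 0.0163). Its 5 other tested probe sets had changes of -0.38 to -1.36, and 3 of them passed. Epas1, the HIF2 alpha subunit, was under the filter.

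The remaining falls were those of Cul2, the scaffold of the Vhl ubiquitin ligase (-0.52, SE 0.11, limma adjusted p = 0.0200), and of Cited2, which competes with HIF for its coactivators (-0.36, SE 0.10, limma adjusted p = 0.0424). With quantile normalization Cited2 did not pass (limma adjusted p = 0.0699), nor with median centring (0.0580), and the ligase subunit Eloc, at 0.22 here, passed as higher with quantile normalization (0.33, limma adjusted p = 0.0406). Among those that did not pass were Arnt, the constant partner of the HIF alpha subunits (-0.25, limma adjusted p = 0.122), Vhl (0.19, 0.304), the third hydroxylase Egln2 (0.05, 0.760) and the asparaginyl hydroxylase Hif1an (-0.33, 0.0606). The coactivators Ep300 and Crebbp had changes of -0.47 (limma adjusted p = 0.165) and -0.34 (0.0605), the ubiquitin ligase Siah1a of -0.56 (0.0561), and Elob, which pairs with Eloc, of 0.15 (0.325). These calls were not firm. Without any 1 array the limma adjusted p of Hif1a was 0.0572 to 0.106. That of Hif3a was 0.0383 without WT replicate 1 and 0.0844 to 0.116 without any other array, and the calls for Cul2 and Cited2 ended without any 1 array.

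**Figure D3:**
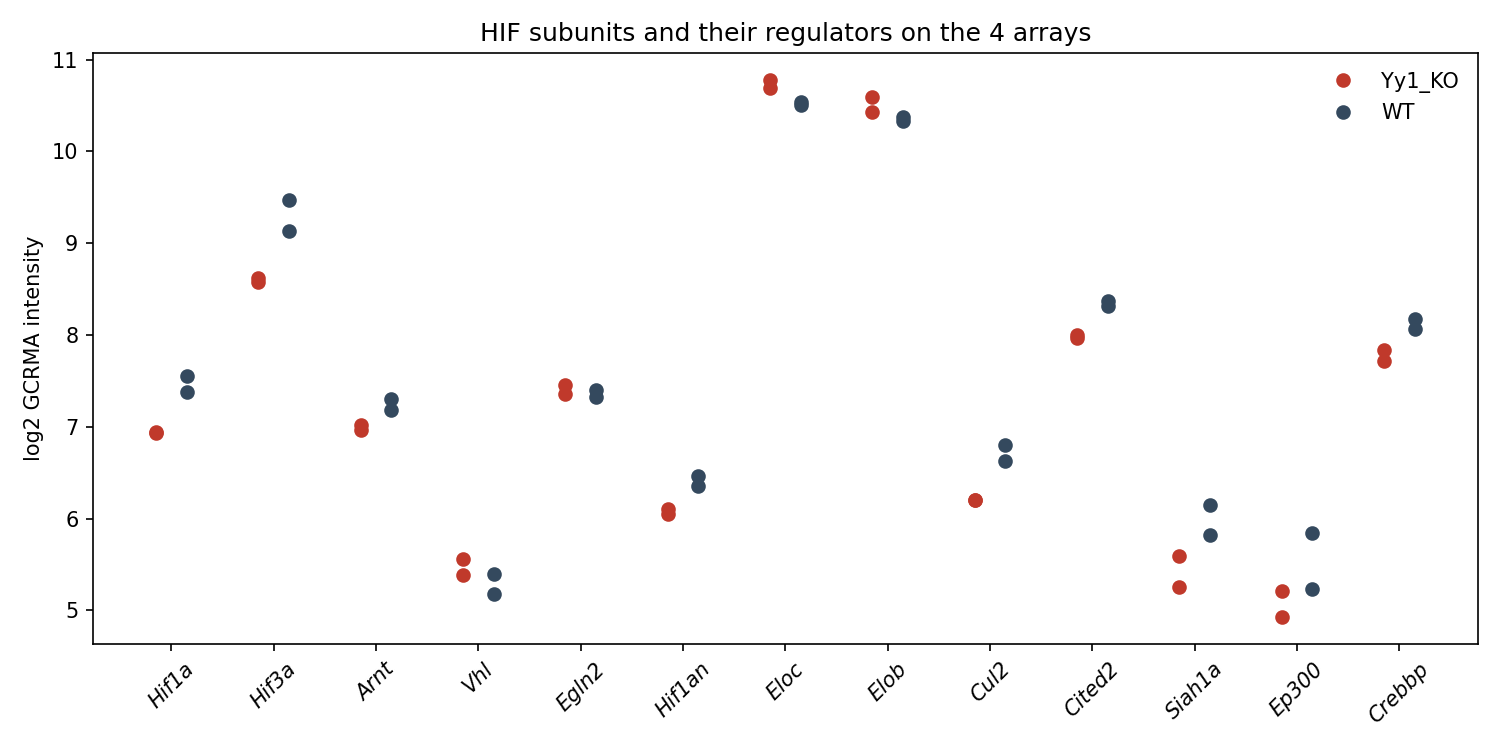
Log2 GCRMA intensity (vertical axis) of the 13 tested HIF subunits and regulators, 1 point per array, with the 2 Yy1_KO arrays in red to the left of the 2 WT arrays in dark blue. Hif1a and Hif3a lay lower on both Yy1_KO arrays, by 0.53 and 0.70, while Vhl and Egln2 overlapped.

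Further HIF target genes went in both directions. Of 18 tested non-glycolytic targets 8 were lower, 2 were higher and 8 did not pass, with a median log2 change of -0.29. Falling most were the transcriptional repressor Bhlhe40 (-2.19 ± 0.19 SE), the mitochondrial adenylate kinase Ak4 (-1.70 ± 0.11) and Bnip3, a receptor for mitophagy (-1.60 ± 0.11), with limma adjusted p between 0.00105 and 0.00161. Bhlhe40 stood at 4.86 on both Yy1_KO arrays, against 6.78 and 7.31 in WT. The genes that were higher were Edn1 and Ddit4. Edn1, the vessel-constricting peptide endothelin 1, had 7.15 and 7.74 in Yy1_KO, against 4.95 and 4.91 in WT (log2 change 2.52, SE 0.21, limma adjusted p = 0.00145), a larger change than that of Car9. Ddit4, an inhibitor of mTORC1 signalling that was singled out after its value was seen, had 9.09 and 9.10 in Yy1_KO, against 8.21 and 8.34 in WT (0.82, limma adjusted p = 0.00448). Of the 10 endothelial markers 9 were under the filter on all arrays, with Cdh5 at the values given above, and the summed linear intensity of the list was 82.5 and 76.3 in Yy1_KO, against 98.0 and 86.9 in WT. The part of endothelial RNA in the Edn1 result was not tested.

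Of 13 tested glycolytic HIF targets 10 were lower and 3 did not pass, with a median log2 change of -0.60. The lactate exporter Slc16a3 (-1.93), the phosphofructokinase subunits Pfkp (-1.76) and Pfkl (-1.21) and the kinase Pgk1 (-0.99) changed most, each with a limma adjusted p between 0.000924 and 0.00234. For 1 of the 10, Pfkfb3, both Yy1_KO values were below the filter, where only a fall was testable; it is named after its value was seen. Against 21.7% lower over all tested genes, 8 of 18 and 10 of 13 are counts of lists written with earlier results of these data known, and no test of the lists was made. When 1 array was left out, fewer genes of both lists were called lower, and fewer of all tested genes too. The median log2 change then lay between -0.38 and -0.23 over the 18, and between -0.69 and -0.57 over the 13.

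The receptors of the secreted members were mostly not measurable. Of 14 receptor and ligand genes of the Vegfa and Adm systems on the array 3 were tested. The Vegfa receptor genes Kdr and Flt1 stood between 2.40 and 2.45 on all arrays, and the Adm receptor Calcrl between 2.40 and 2.83. The co-receptor Nrp1 was higher, with 4.78 and 4.51 in Yy1_KO, against 2.71 and 2.45 in WT, where only a rise was testable (log2 change 2.07, SE 0.15, limma adjusted p = 0.00117). Its relative Nrp2 was lower, with 5.69 and 5.62 in Yy1_KO, against 6.30 and 6.28 in WT (-0.63, SE 0.10, limma adjusted p = 0.00807), and the ligand Vegfb by -0.42 (limma adjusted p = 0.0361). Without WT replicate 1, WT replicate 2 or Yy1_KO replicate 2 the Nrp2 adjusted p was 0.0595 to 0.0695, and without any 1 array that of Vegfb was 0.0760 to 0.144.

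**Figure D4:**
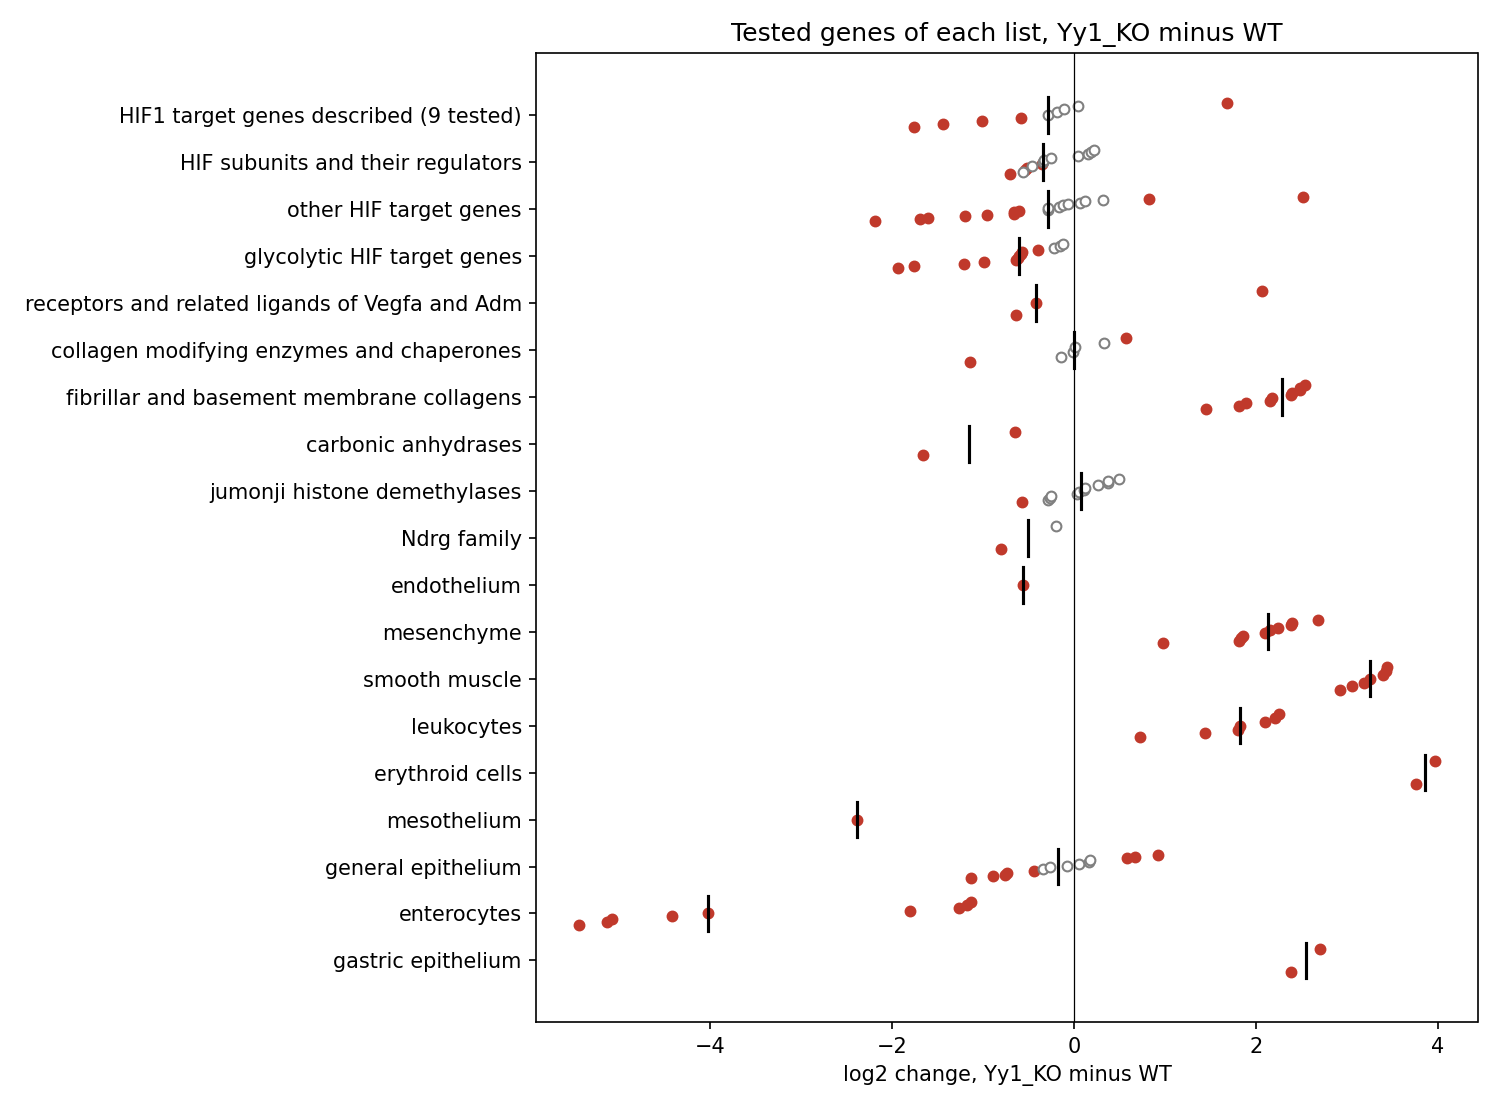
Log2 change, Yy1_KO minus WT (horizontal axis), of every tested gene in each list (rows), as 1 point per gene, filled red for a limma adjusted p under 0.05, with a black bar at the list median. The 9 tested members and the other HIF targets spread on both sides of 0, with list medians of -0.28 and -0.29, while the glycolytic targets had a median of -0.60 and the collagens of 2.28.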

How the data were processed

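The deposited values are log2 intensities of 45101 probe sets, which the authors made with GCRMA (a sequence-based background correction followed by normalization between arrays), per the submitters' processing notes; version and settings are not given in the sources used here. Every array had the same lowest value, 2.36. The authors' deposited table of 2156 probe sets, per its file headers, holds log2 fold changes, p-values and scores (moderated t and log odds). Its changes equal Yy1_KO minus WT to within 0.00748, and no score was used.

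After 64 control probe sets were set aside, 16887 probe sets with a log2 value of at least 4 on at least 2 arrays entered 1 model in limma 3.58.1 (lmFit, eBayes; R 4.3.3), Yy1_KO minus WT, without covariates, and adjusted by Benjamini-Hochberg over all of them. The code was tested on simulated data. A gene is its brightest tested probe set with 1 symbol in the platform annotation. The number of arrays limits the precision: an exact permutation test of 2 against 2 cannot go below p = 0.333. Replicates were biological pools per the series design. The labels do not say whether the replicate numbers pair the samples. Same-numbered samples did not deviate together (correlation -0.31), but 2 samples per genotype cannot settle whether they are paired. No pairing was used in the main fit. Named genes are all members, Yy1, Shh, all tested HIF regulators and up to 4 called genes of each other pathway list with the largest changes and no overlap of the groups; others are values within a list. The members and lists were chosen with earlier results of these data known. RNA had been precipitated with 10 ug of the carrier LPA.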

Additional observations from a re-analysis of the deposited data

How the results depend on the processing

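With no filter on low values, which brings in all probe sets at the floor, 0 of the members passed by limma (0 higher, 0 lower), with 5 of 10 at an unadjusted p under 0.05, and 87 of all genes passed (39 higher, 48 lower); the members' adjusted p then lay between 0.0767 (Egln1) and 0.132 (Ndrg1) for the 5 called. Without 1 array, 2 to 4 members passed (1 to 3 lower, 1 higher), and 797 to 1637 of all genes did (354 to 823 higher, 443 to 893 lower). The fewest calls came without WT replicate 2, where Car9 and Egln3 passed. At an adjusted p under 0.01, 1611 genes passed (718 higher, 893 lower), and against a 1.2-fold change 1859 (823 higher, 1036 lower). A filter at log2 of 6 left 915 higher. Of 130 values of single members under the alternatives, 115 kept direction and side of the threshold, 13 lost the call, 1 gained it (Vegfa, -0.48, limma adjusted p = 0.0398, with the mean over its probe sets) and 1 turned. Without 1 array P4ha1 ranged from -0.30 to 0.0865, its other probe set from -0.27 to 0.10 and Egln2 from -0.0019 to 0.0933; P4ha1 turned positive on both probe sets without Yy1_KO replicate 1, and Egln2 turned negative without Yy1_KO replicate 2. With the replicate number as a replicate block, 5 members (1 higher, 4 lower) and 2867 genes passed, and with the crossed pairing, added after the data had been seen, 5 and 3515. The dimmer Vegfa probe set lost its call with the block (limma adjusted p = 0.0548) and with a filter at 3 (0.0555).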
